A study of Mus musculus with 54 samples.

Results

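Fat cells kept in long culture were followed here in their control state: the 3T3-L1 line sampled at 192, 240 and 288 h was set against the same line at 96 and 144 h. The members were the 10 arrays whose titles name the untreated or the DMSO arm at these 5 times, of 54 arrays in the series. They comprised 6 arrays at 192 to 288 h (3 untreated and 3 DMSO) and 4 arrays at 96 to 144 h (2 untreated and 2 DMSO). The study exposed the cells to 2 µM prieurianin, a plant limonoid, or to 0.5% DMSO, its vehicle, for 18 times from 0 to 288 h, beside an untreated control that went through normal differentiation, with 1 array for each arm and time. None of the 10 arrays received prieurianin, and the DMSO arrays differed from the untreated ones by the vehicle. All samples were 3T3-L1, a clonal mouse line of fibroblast shape that can convert to adipocytes, and the labels call all of them preadipocytes at every time. The labels do not give the differentiation mixture, the medium changes or whether separate cultures were used at each time, so the times stand in for replicates and the p-values measure the spread between these arrays.

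Differentiating 3T3-L1 cells leave the cell cycle and switch on PPARγ and C/EBPα, which drive genes for fatty acid uptake, triglyceride synthesis, lipid droplet coats and secreted adipokines. In adipose tissue, mature adipocytes store and release fatty acids, take up glucose under insulin, secrete adiponectin and complement proteins, and express interferon and inflammatory genes when challenged. Long culture of the line is used as a model of adipocyte maturation and maintenance.

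Levels below are log2(intensity + 16) after quantile scaling, in which 4 is an intensity of 0 and 16 is the scanner's ceiling. A change is the level at 192 to 288 h minus that at 96 to 144 h, with arm as a block, given in log2 units ± its standard error from limma over the 10 arrays. A gene is called where its Benjamini-Hochberg adjusted p over 12477 genes is below 0.05. The adipocyte name was checked against 10 tested markers. Their mean was 13.1 to 13.6 at 192 to 288 h and 12.7 to 13.5 at 96 to 144 h. On the control arrays of 0 to 48 h it was 7.9 to 10.2. Not every member was high, as Cebpa lay at 9.22 to 11.2 over the 10 arrays. The mean of 12 fibroblast and preadipocyte markers was high too, at 13.6 to 14.2 and 13.2 to 13.8 in the same order. Adipoq, adiponectin, was at 15.79 to 16 at 192 to 288 h against 14.20 to 15.47 at 96 to 144 h, while it lay between 4.91 and 10.65 on the 26 control arrays of 0 to 48 h. Lep, leptin, stayed below the filter on low values, at a mean of 5.37 ± 0.29 (SD, n = 6) at 192 to 288 h and 5.17 ± 0.15 (SD, n = 4) at 96 to 144 h.

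One array stood apart. The untreated array at 192 h correlated about equally with the untreated arrays at 240 h (Pearson's r = 0.984, over genes, which are no independent replicates) and 144 h (0.984), and over the 2788 called genes it lay at a median of 0.652 of the way from the 96 to 144 h mean to the 192 to 288 h mean. The other 5 arrays of its window lay at 1.03 to 1.11. It held the least changed value of its window for 12 of the 12 largest rises and 10 of the 12 largest falls. Without it 2973 genes were called instead of 2788, and 163 of the 166 called genes that the naming rule picked kept their call. Median intensity per array ran from 88 to 144 and saturated probes numbered 101 to 133 per array, and the number of arrays limits the precision.

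Between the windows 1392 genes rose and 1396 fell, each 11.2% of 12477 tested, 324 and 222 of them by more than 2-fold. On all 6 later arrays 989 genes (7.93%) were above all 4 earlier ones and 1017 (8.15%) below all of them. The median change over all genes was -0.02. Every called gene had the same sign of change in both arms, which the call over both arms favours. With median centring the split was 979 higher and 1272 lower, and as deposited 1172 higher and 799 lower. Leaving out 96, 144, 240 or 288 h from both arms lowered the count to 1676, 1583, 1563 and 1741, and with time as a random block it was 1894.

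Among called genes whose windows did not overlap, the condition for this choice, the largest rises included interferon-stimulated genes and acute phase and complement proteins, and the largest falls included secreted proteins, keratins, serpins and enzymes of lipid synthesis. Among the 12 largest rises, Ifit3, an antiviral tetratricopeptide repeat protein, rose 51.1-fold (5.67 ± 0.60, adjusted p = 0.00037). Itih4, an acute phase plasma protein, rose 18.4-fold (4.20 ± 0.40, 0.00026), Zbp1, a sensor of Z-form nucleic acids, 15.3-fold (3.94 ± 0.46, 0.00057, or 2.56 log2 units with a pseudocount of 64), and Cfb, complement factor B, 12.6-fold (3.66 ± 0.62, 0.003). Prl8a9, a member of the prolactin family, rose 10.7-fold (3.42 ± 0.38, 0.00042) and Mpeg1, a pore-forming protein known from macrophages, 10.4-fold (3.38 ± 0.51, 0.0017). On the other side, Pip, prolactin-induced protein, fell 40.8-fold (-5.35 ± 0.21, 1.3e-06) and Retnla, resistin-like alpha, 36.4-fold (-5.18 ± 0.47, 0.00021).

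Pip was at 6.93, 6.41 and 5.94 in untreated cells and 6.29, 6.04 and 6.09 in DMSO cells at 192, 240 and 288 h, against 12.11 and 11.26 in untreated cells and 11.77 and 11.40 in DMSO cells at 96 and 144 h. The highest later value was far below the lowest earlier one. Retnla was at 9.47, 7.78 and 6.77 in untreated cells and 8.01, 7.44 and 6.6 in DMSO cells at 192, 240 and 288 h, against 13.37 and 12.53 in untreated cells and 12.92 and 12.64 in DMSO cells at 96 and 144 h. It was lowest at 288 h in both arms. Itih4 was at 9.96, 11.75 and 11.27 in untreated cells and 10.52, 11.24 and 11.66 in DMSO cells at 192, 240 and 288 h, against 6.33 and 7.29 in untreated cells and 6.24 and 7.61 in DMSO cells at 96 and 144 h, and its 0 to 48 h controls lay between 5.15 and 6.27. Its later values were thus above every earlier control array.

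The other large falls were those of Serpina3a, a serine protease inhibitor (-3.01 ± 0.37, adjusted p = 0.00067), Ear6, an eosinophil-associated ribonuclease (-2.93 ± 0.48, 0.0026), the keratins Krt16 (-2.73 ± 0.36, 0.00088) and Krt15 (-2.37 ± 0.36, 0.0019), Cxcl13, a B cell chemokine (-2.51 ± 0.46, 0.0043), and Egr2, a zinc finger transcription factor (-2.13 ± 0.39, 0.0039). Serpina3k (-2.59 ± 0.71, 0.025), Ctla2a, a cysteine protease inhibitor (-2.17 ± 0.43, 0.0058), and Scd3, a stearoyl-CoA desaturase (-2.26 ± 0.46, 0.0067), fell too. Cxcl13 was at 11.64, 10.44 and 8.88 in untreated cells and 10.10, 10.23 and 8.82 in DMSO cells at 192, 240 and 288 h, against 12.54 and 12.81 in untreated cells and 12.18 and 12.59 in DMSO cells at 96 and 144 h. Serpina3k was at 12.19, 10.60 and 7.92 in untreated cells and 9.50, 10.47 and 8.20 in DMSO cells at 192, 240 and 288 h, against 12.31 and 12.59 in untreated cells and 12.27 and 12.45 in DMSO cells at 96 and 144 h. Both were lowest at 288 h in both arms, and the untreated array at 192 h was the later array nearest to the 96 to 144 h values. Serpina3k did not pass once 96, 144 or 240 h was left out (adjusted p = 0.11, 0.14 and 0.055) or without single arrays of DMSO 288, 96 or 144 h or untreated 96 or 144 h (0.05 to 0.067), and its change was -1.71 without 288 h. The call of Scd3 was lost without 144 h (-1.83, adjusted p = 0.074) and that of Ctla2a without 96 h (-2.15, adjusted p = 0.051). Probes of the Serpina3, Ear, Ifit, Gbp and Mx families can share sequence, so signal between paralogs of a family cannot be told apart.

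**Figure D1:**
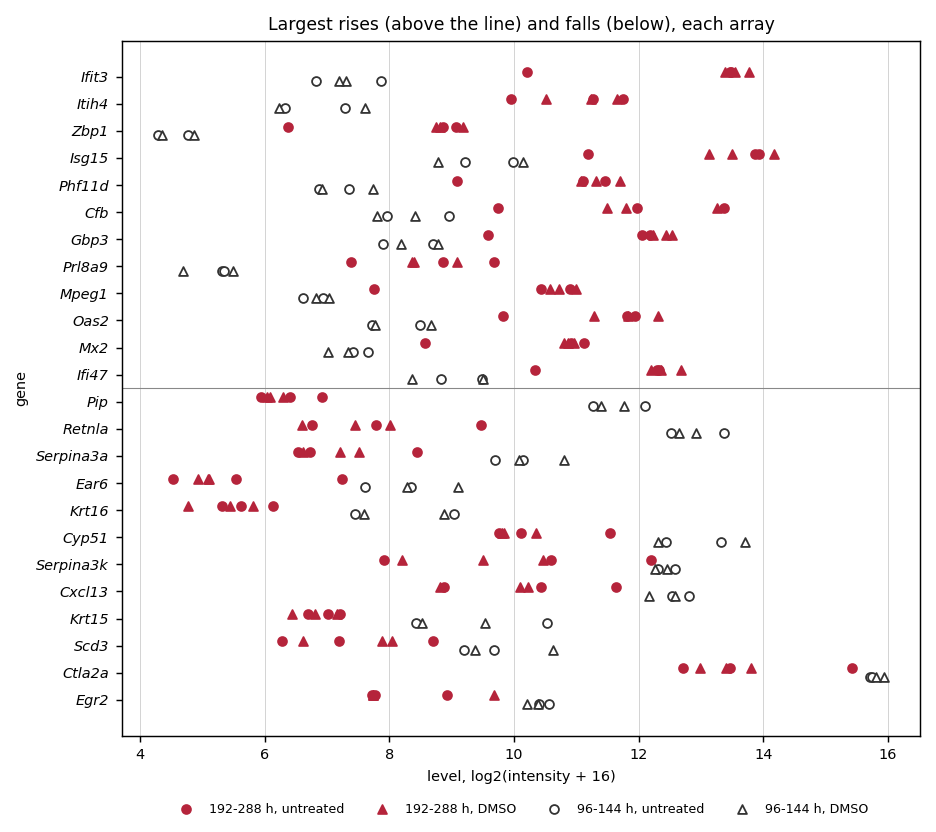
Level of the 12 largest rises and the 12 largest falls on each array, as log2(intensity + 16) on the horizontal axis with 1 gene per line. Filled symbols are arrays at 192 to 288 h and open symbols those at 96 to 144 h, circles untreated and triangles DMSO. The genes were picked among those whose windows do not overlap. The filled circle nearest to the open symbols is the untreated array at 192 h for all 12 rises.

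Interferon-stimulated genes rose together. These genes are switched on by interferon signalling and encode antiviral effectors and antigen presentation proteins. Of 29 listed genes 27 were measured and 26 passed the filter, and 23 of these rose while 0 fell, against 11.2% higher among all genes. All 26 estimates were above 0, with a median of 1.89 and a range of 0.28 to 5.67, while the median of all genes was -0.02. Ifit1, another relative of Ifit3, was below the filter, with a mean of 6.81 ± 1.05 (SD, n = 6) at 192 to 288 h and 5.09 ± 0.40 (SD, n = 4) at 96 to 144 h. The count ran from 19 to 25 over leaving out single arrays and over leaving out single times, and was 25 without the untreated array at 192 h.

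Ifit3 was at 10.21, 13.49 and 13.46 in untreated cells and 13.77, 13.38 and 13.55 in DMSO cells at 192, 240 and 288 h, against 7.87 and 6.82 in untreated cells and 7.31 and 7.2 in DMSO cells at 96 and 144 h. The untreated 192 h value lay between the windows, and the other 5 later values lay between 13.38 and 13.77. Isg15, a ubiquitin-like modifier, was at 11.20, 13.93 and 13.87 in untreated cells and 14.18, 13.14 and 13.50 in DMSO cells at 192, 240 and 288 h, against 9.99 and 9.22 in untreated cells and 10.15 and 8.78 in DMSO cells at 96 and 144 h. Oas2, an oligoadenylate synthetase that activates RNase L, was at 9.83, 11.94 and 11.81 in untreated cells and 12.31, 11.29 and 11.83 in DMSO cells at 192, 240 and 288 h, against 8.50 and 7.72 in untreated cells and 8.67 and 7.77 in DMSO cells at 96 and 144 h. In both genes the level at 144 h was below that at 96 h in both arms. Stat2, the transcription factor of the type I interferon response, was at 10.62 to 12.16 (median 11.91) at 192 to 288 h, against 9.59, 9.72, 9.82 and 9.87 at 96 to 144 h, a change of 1.99 ± 0.24, adjusted p = 0.00059. Ifit2, a relative of Ifit3, changed by 2.12 ± 0.24, adjusted p = 0.00046, Gbp3, a guanylate-binding protein, by 3.45 ± 0.47, 0.0011, Mx2, an antiviral dynamin-like GTPase, by 3.18 ± 0.44, 0.0011 and Ifi47, a p47 immunity-related GTPase, by 2.99 ± 0.42, 0.0011. Phf11d, a PHD finger protein, which stood among the largest rises, changed by 3.74 ± 0.41, 0.00043.

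The mean level of the 26 genes was 10.47, 12.06 and 12.07 in untreated cells and 12.26, 12.03 and 12.02 in DMSO cells at 192, 240 and 288 h, against 9.998 and 9.58 in untreated cells and 10.04 and 9.57 in DMSO cells at 96 and 144 h. The control arrays of 0 to 48 h lay between 10.45 and 12.13, so that the 4 arrays at 96 to 144 h were below all of them and 5 of the 6 later arrays lay between 12.02 and 12.26. Among the 23 genes that rose, 20 had a later median within the 0 to 48 h range and 3 above it.

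The promoters of these genes are shown because the list moved together and its regulators bind a known motif. The core of the interferon-stimulated response element was searched as GAAANNGAA on both strands, where N is any base and overlapping matches count, in RefSeq windows (GRCm38.p6) from 250 bases before to 50 after each start site. A gene with several windows counted once. Of 21 list members with a window 11 (52.4%) held it, against 9.76% of all 27025 genes in the promoter table and 8.66% of the 10040 tested genes with a window. The windows of the members among the largest rises that held it follow, 5′ to 3′ on the strand of the gene, with the matches in capitals. They lie at chr19:34583279-34583578, plus strand, for Ifit3, chr4:156200769-156201068, minus strand, for Isg15, and chr3:142559794-142560093, plus strand, for Gbp3.
Ifit3: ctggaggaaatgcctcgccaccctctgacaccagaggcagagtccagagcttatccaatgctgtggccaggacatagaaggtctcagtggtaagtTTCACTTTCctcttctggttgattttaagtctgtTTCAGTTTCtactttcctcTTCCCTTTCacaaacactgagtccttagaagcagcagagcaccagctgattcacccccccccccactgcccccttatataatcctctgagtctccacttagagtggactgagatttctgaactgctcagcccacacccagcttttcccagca
Isg15: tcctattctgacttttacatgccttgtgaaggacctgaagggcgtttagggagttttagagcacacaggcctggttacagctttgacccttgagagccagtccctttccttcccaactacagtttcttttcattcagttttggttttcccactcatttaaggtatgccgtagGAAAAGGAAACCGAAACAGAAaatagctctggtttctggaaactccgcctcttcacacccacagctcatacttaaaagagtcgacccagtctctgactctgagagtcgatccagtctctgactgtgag
Gbp3: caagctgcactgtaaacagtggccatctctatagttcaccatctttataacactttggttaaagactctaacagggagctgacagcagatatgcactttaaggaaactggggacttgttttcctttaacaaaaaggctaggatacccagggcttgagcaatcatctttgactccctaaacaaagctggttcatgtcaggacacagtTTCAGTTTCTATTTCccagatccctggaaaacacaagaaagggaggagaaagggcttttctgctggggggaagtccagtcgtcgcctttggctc
Ifit3 and Isg15 held 3 matches each and Gbp3 held 2. Overlapping matches form 1 longer run of capitals in Isg15 and Gbp3, and those of Ifit3 and Gbp3 lie on the strand opposite to the gene. A match describes the letters of the window and shows no binding, and windows without a match say nothing of the factor.

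Inflammatory NF-kB targets rose in part. Of 20 tested genes 12 rose and 1 fell, against 11.2% of all genes in each direction, with a median of 0.52 and a range of -1.20 to 2.70. The chemokine Ccl2 was at 13.41, 14.92 and 15.42 in untreated cells and 14.53, 14.68 and 15.13 in DMSO cells at 192, 240 and 288 h, against 12.23 and 11.89 in untreated cells and 12.42 and 11.39 in DMSO cells at 96 and 144 h (2.70 ± 0.36, adjusted p = 0.00091). It was lowest of its window on the untreated 192 h array and lowest of all at 144 h in DMSO cells. Csf1, the macrophage growth factor, changed by 1.78 ± 0.24, adjusted p = 0.001 and Ccl7, a monocyte chemokine, by 1.79 ± 0.32, 0.0039. Cxcl1, a neutrophil chemokine, changed by 1.73 ± 0.35, 0.006, a call lost without 144 h (1.61, adjusted p = 0.056). The count of rises was 3 without 144 h, 6 without 240 h and 7 without 96 or 288 h, and 7 with time as a random block or without the DMSO array at 288, 96 or 144 h or the untreated array at 144 h. The list mean was 10.77, 11.44 and 11.88 in untreated cells and 11.67, 11.51 and 11.86 in DMSO cells at 192, 240 and 288 h, against 10.84 and 10.52 in untreated cells and 10.98 and 10.39 in DMSO cells at 96 and 144 h. On the untreated 192 h array the mean was therefore within the range of 96 to 144 h.

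Of 17 tested complement and acute phase genes 7 rose and 2 fell, against 11.2% of all genes in each direction, with a median of 0.22. The share that fell is near that of all genes. Cfb was at 9.75, 11.98 and 13.36 in untreated cells and 11.80, 11.50 and 13.25 in DMSO cells at 192, 240 and 288 h, against 8.95 and 7.96 in untreated cells and 8.42 and 7.80 in DMSO cells at 96 and 144 h, highest at 288 h in both arms. Hp, haptoglobin, was at 15.79 to 16 (median 16) at 192 to 288 h, against 14.95, 14.99, 15.08 and 15.20 at 96 to 144 h; it was saturated on 4 of the later arrays, so its change of 0.91 ± 0.09, adjusted p = 0.00028 is too small by an unknown amount. Cp, ceruloplasmin, changed by 1.79 ± 0.20, 0.00042 and Serping1, the C1 inhibitor, by 1.93 ± 0.29, 0.0016. Orm1, the acute phase protein orosomucoid, fell (-1.29 ± 0.21, 0.0026), with values of 12.30 to 13.82 at 192 to 288 h against 13.66 to 14.49 at 96 to 144 h that overlapped.

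Markers of other cell types were measured beside these immune genes. Of 16 macrophage markers 15 were measured and 8 passed the filter. Of these 3 rose and 0 fell, against 11.2% of all genes in each direction, with a median of 0.50. The summed intensity of the 15 ran from 4098 to 5483 on the later arrays and from 2205 to 2675 on the earlier ones. Most of this rise was that of Cd14 alone, so the sum does not describe the markers as a set. Csf1r, the CSF1 receptor, was at 6.98 to 7.73 at 192 to 288 h against 5.21 to 5.84 at 96 to 144 h (1.88 ± 0.18, adjusted p = 0.00027), though a second probe of it changed by -0.17, and Cd14, a lipopolysaccharide co-receptor also found on other cells, was at 10.58 to 11.76 at 192 to 288 h against 9.44 to 9.84 at 96 to 144 h (1.80 ± 0.22, 0.00065). Lyz2, lysozyme, changed by 0.73 ± 0.18, 0.017, which did not pass once 144, 240 or 288 h was left out (adjusted p = 0.14, 0.075 and 0.053) or the untreated array at 144 h (0.055). The defining markers Adgre1 (mean 5.47 ± 0.53 against 5.54 ± 0.27, SD, n = 6 and 4), Ptprc (4.73 ± 0.14 against 4.74 ± 0.24) and Tyrobp (4.87 ± 0.14 against 5.17 ± 0.38) were below the filter in both windows, and none of the 15 was at 0 on any array. The part of such cells in the immune gene results was not tested. Of the skeletal muscle, bone and cartilage, endothelial and epithelial markers 7, 7, 5 and 6 were tested, and 0, 2, 1 and 0 rose while 1, 0, 0 and 0 fell. In bulk samples fewer cells of a type and less RNA per cell cannot be told apart.

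Part of the actin and contractile genes rose. These genes are targets of serum response factor (SRF) and its cofactors, and they are abundant in fibroblasts and preadipocytes. Of 16 tested genes 9 rose and 0 fell, against 11.2% of all genes in each direction, with a median of 0.74; without 144 h 5 rose. Ccn2, a matricellular growth factor, was at 7.41, 7.36 and 7.31 in untreated cells and 7.68, 7.18 and 7.44 in DMSO cells at 192, 240 and 288 h, against 5.21 and 5.37 in untreated cells and 5.74 and 5.49 in DMSO cells at 96 and 144 h (1.94 ± 0.12, adjusted p = 5.5e-05). Its values were dim, and the windows did not overlap. Ankrd1, an ankyrin repeat protein induced by stretch, was at 6.96 to 8.27 (median 7.76) at 192 to 288 h, against 4.91, 4.93, 5.04 and 5.32 at 96 to 144 h (2.61 ± 0.25, 0.00028). Acta2, smooth muscle alpha-actin, was at 13.38, 14.71 and 14.68 in untreated cells and 14.27, 14.67 and 14.46 in DMSO cells at 192, 240 and 288 h, against 12.43 and 11.31 in untreated cells and 12.10 and 11.05 in DMSO cells at 96 and 144 h (2.64 ± 0.33, 0.00074). Of its 4 probes 3 changed by 2.19 to 2.64 and the other by -0.23. Myl9, a regulatory myosin light chain of smooth muscle, changed by 1.61 ± 0.26, 0.0024. The list mean was 10.75 to 11.09 at 192 to 288 h, against 9.93 to 10.27 at 96 to 144 h, and 10.62 to 12.70 on the 0 to 48 h controls.

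Part of the genes of the matrix rose as well. Of 21 genes of fibrillar collagens and their crosslinking 10 rose and 2 fell, with a median of 0.43, and of 19 matrix proteases and inhibitors 8 rose and 0 fell, with a median of 0.54, against 11.2% of all genes in each direction. Loxl2, a collagen crosslinking oxidase, changed by 1.64 ± 0.23, adjusted p = 0.0013 and Thbs1, thrombospondin 1, by 2.13 ± 0.38, 0.0039. Thbs1 was at 7.12, 8.30 and 9.30 in untreated cells and 7.72, 8.54 and 9.16 in DMSO cells at 192, 240 and 288 h, against 5.82 and 6.32 in untreated cells and 6.37 and 6.41 in DMSO cells at 96 and 144 h, higher at each later time in both arms. Mmp11 (1.97 ± 0.20, 0.00031), Mmp23 (2.21 ± 0.24, 0.0004) and the collagenase Mmp13 (1.90 ± 0.26, 0.0011) are metalloproteinases, and all 3 had windows that did not overlap. Col1a1, a chain of type I collagen, was at 12.74, 13.92 and 14.21 in untreated cells and 13.18, 13.57 and 13.97 in DMSO cells at 192, 240 and 288 h, against 12.66 and 12.40 in untreated cells and 12.17 and 11.80 in DMSO cells at 96 and 144 h (1.34 ± 0.28, 0.0069); its call was lost without 144 h (1.19, adjusted p = 0.069). The collagen count was 3, 6 and 5 without 144, 240 and 288 h, and 6 with median centring or without either array at 144 h. The protease count was 3, 3 and 5 without 144, 240 and 288 h. Of 14 basement membrane genes 3 rose and 3 fell: Col4a5 changed by 0.79 ± 0.12, 0.0019 and Col4a1 by -0.69 ± 0.12, 0.0039, both chains of type IV collagen. Without 96, 144, 240 or 288 h 1 basement membrane gene rose, and without 144 or 240 h 1 fell.

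**Figure D2:**
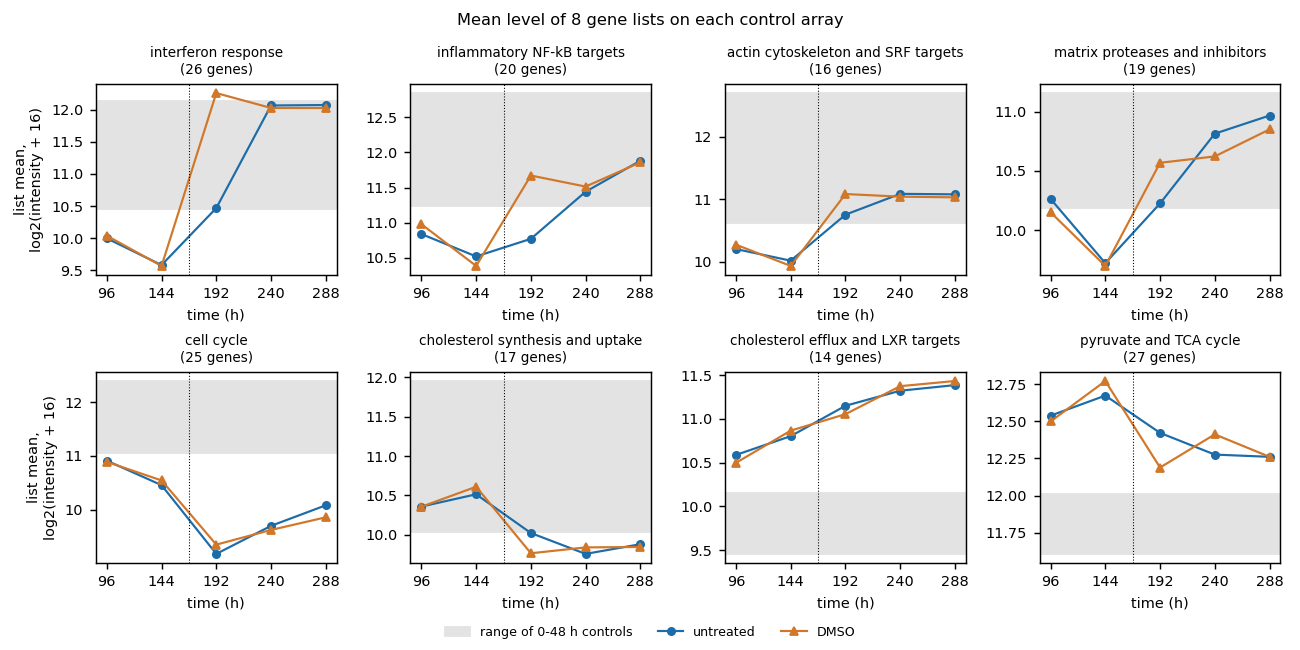
Mean level of 8 gene lists on each array, as log2(intensity + 16) against time in hours, for untreated cells (circles) and DMSO cells (triangles), 1 array per point, with a scale of its own in each panel. The grey band is the range of the 26 control arrays at 0 to 48 h and the dotted line parts the windows. The interferon mean of untreated cells reached its later level at 240 h and that of DMSO cells at 192 h, while the cell cycle mean was lowest at 192 h in both arms.

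Most cell cycle genes fell. Of 25 tested genes 0 rose and 21 fell, against 11.2% lower among all genes. Their median change was -0.95, with a range of -1.96 to 0.01. For 19 of the 25 all later arrays were below all earlier ones, against 8.15% of all genes. Cdc6, which loads the replicative helicase, was at 8.04 to 8.88 (median 8.38) at 192 to 288 h, against 9.97, 10.07, 10.22 and 10.50 at 96 to 144 h (-1.75 ± 0.17, adjusted p = 0.00028), and its other probes changed by -0.50 and -0.74. Ccne2, cyclin E2, was at 8.25 to 8.57 (median 8.47) at 192 to 288 h, against 9.13, 9.23, 9.26 and 9.26 at 96 to 144 h (-0.77 ± 0.09, 0.00062). Mcm7, a subunit of that helicase, changed by -0.77 ± 0.10, 0.00082 and Birc5, survivin, which acts in chromosome segregation, by -1.60 ± 0.22, 0.0011. Without 96 h 9 of the genes fell; over single arrays left out the count ran from 17 to 22.

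The list mean was 9.18, 9.70 and 10.08 in untreated cells and 9.35, 9.62 and 9.86 in DMSO cells at 192, 240 and 288 h, against 10.91 and 10.46 in untreated cells and 10.89 and 10.54 in DMSO cells at 96 and 144 h. It was lowest at 192 h and higher at each later time, in both arms, while all 10 arrays lay below the 0 to 48 h controls (11.05 to 12.39). Of the 21 genes that fell, 20 had a later median below every 0 to 48 h control array, and 13 had a 96 to 144 h median below them already. The E2F site was searched in the same promoter windows as the interferon motif, as TTTGGCGC on both strands. It was held by 3 (14.3%) of the 21 list members with a window, against 0.585% of all genes in the promoter table. Among tested genes with a window the share was 1.03%. A match shows no binding. Of 17 genes for D-type cyclins, CDK inhibitors and p53 targets 6 rose and 1 fell, against 11.2% of all genes in each direction. Cdkn2a, which encodes p16 and p19ARF, was at 8.81 to 9.74 (median 9.35) at 192 to 288 h, against 7.15, 7.29, 7.91 and 8.18 at 96 to 144 h (1.68 ± 0.19, adjusted p = 0.00045). Cdkn2b, which encodes p15, changed by 0.86 ± 0.12, 0.001 and Gadd45a, a growth arrest gene, by 1.17 ± 0.15, 0.00073. Ccnd2, cyclin D2, changed by 1.15 ± 0.22, 0.0045, a call lost without 96 h (0.93, adjusted p = 0.056).

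Pparg and Cebpa, the central regulators of adipogenesis, did not pass the test, and some of their partners fell. Pparg was at 13.94, 13.83 and 13.76 in untreated cells and 13.70, 13.83 and 13.67 in DMSO cells at 192, 240 and 288 h, against 13.72 and 14.15 in untreated cells and 13.43 and 14.10 in DMSO cells at 96 and 144 h (-0.06 ± 0.14, adjusted p = 0.79). Its windows overlapped, and its sign turned without 144 h (0.21). Cebpa was at 9.22 to 10.56 (median 10.34) at 192 to 288 h, against 9.93, 10.41, 10.75 and 11.20 at 96 to 144 h (-0.40 ± 0.26, 0.31), which did not pass. Cebpb, an early regulator of the programme, fell (-0.46 ± 0.12, 0.024), which did not pass once 96, 144, 192 or 240 h was left out (adjusted p = 0.11, 0.093, 0.053 and 0.052), with time as a random block (0.069), as deposited (0.069) or without the DMSO array at 96 h (0.064) or the untreated array at 144 h (0.078). Of 21 tested adipogenic transcription factors and cofactors 2 rose and 7 fell, against 11.2% of all genes in each direction, with a median of -0.20. The share that rose is near that of all genes. Without 144 h 3 fell, which is near it too, and without 240 h 4. Klf5, an activator of Pparg, was at 9.13 to 10.27 (median 9.41) at 192 to 288 h, against 10.79, 10.96, 11.40 and 11.65 at 96 to 144 h (-1.69 ± 0.23, 0.00099). Tle3, a corepressor family member that acts with PPARγ, changed by -0.98 ± 0.12, 0.00065, and its other probes by -0.26 and -0.57. Egr2, given above, is on this list too. Nr1h3, the nuclear receptor LXRα, rose (0.84 ± 0.13, 0.0017), at 10.16 to 10.79 at 192 to 288 h against 9.57 to 9.68 at 96 to 144 h.

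Secreted products and lipid droplet proteins of the fat cell had calls in both directions. Adipoq was at 15.84, 16 and 16 in untreated cells and 15.79, 16 and 15.99 in DMSO cells at 192, 240 and 288 h, against 14.31 and 15.29 in untreated cells and 14.20 and 15.47 in DMSO cells at 96 and 144 h (1.12 ± 0.24, adjusted p = 0.0087). Its level at 96 h was below that at 144 h in both arms, and 4 of the later arrays were saturated, so the change is too small by an unknown amount. The change of Adipoq was 0.56 without 96 h and 1.68 without 144 h, and the call was lost without 240 h (1.09, adjusted p = 0.053). Rarres2, chemerin, was saturated on all 6 later arrays and at 15.21, 15.45, 15.21 and 15.34 at 96 to 144 h, a rise of at least 1.62-fold (adjusted p = 0.00059). Cfd, adipsin, saturated on 5 later arrays, changed by 0.68 ± 0.21, 0.044, which did not pass once 96, 192, 240 or 288 h was left out (adjusted p = 0.33, 0.069, 0.14 and 0.13), with time as a random block (0.065), as deposited (0.059), with median centring (0.083), with no filter on low values (0.054) or with most single arrays left out (0.064 to 0.14); it was 0.20 without 96 h and 1.16 without 144 h. Angptl4, an inhibitor of lipoprotein lipase, rose (0.96 ± 0.15, 0.0022), as did Adm, adrenomedullin (1.07 ± 0.17, 0.0019); the other 2 probes of Angptl4 changed by 0.19 and 0.30. Of 17 adipokines and secreted factors 5 rose and 1 fell, against 11.2% of all genes in each direction, the fall being Retnla; without 240 h 3 rose.

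Plin4, a lipid droplet coat protein, was at 14.00, 14.66 and 14.49 in untreated cells and 14.65, 14.70 and 14.44 in DMSO cells at 192, 240 and 288 h, against 13.51 and 13.52 in untreated cells and 13.48 and 13.48 in DMSO cells at 96 and 144 h (1.00 ± 0.13, adjusted p = 0.00098). The earlier values lay close together, and the untreated array at 192 h was nearest to them. Plin1, the droplet coat protein that gates lipolysis, was at 9.19 to 10.23 (median 9.98) at 192 to 288 h, against 8.31, 8.61, 9.42 and 9.89 at 96 to 144 h (0.80 ± 0.31, 0.092), which did not pass. Of 15 droplet coat proteins and lipases 2 rose and 2 fell, near the 11.2% of all genes in each direction; without 144 h 4 rose and 0 fell, and without 96 h 1 rose and 1 fell. Fabp4, the adipocyte fatty acid carrier (-0.32 ± 0.24, 0.37), Cd36, a fatty acid translocase (0.35 ± 0.23, 0.31), Slc2a4, the insulin-responsive glucose transporter (0.51 ± 0.26, 0.2), and Dlk1, a preadipocyte inhibitor of differentiation (0.22 ± 0.16, 0.34), did not pass. Lpl, lipoprotein lipase, was saturated on 5 later and 4 earlier arrays and Scd1, the main stearoyl-CoA desaturase, on 4 and 2, so neither has a fold or a direction that can be read. Of 16 genes of fatty acid uptake and binding only Fabp5, another carrier, fell (-2.10 ± 0.21, 0.0003) and 0 rose. Both shares are below the 11.2% of all genes in each direction. Fabp5 was at 11.37, 11.14 and 11.59 in untreated cells and 11.03, 10.53 and 11.67 in DMSO cells at 192, 240 and 288 h, against 13.22 and 13.14 in untreated cells and 13.38 and 13.54 in DMSO cells at 96 and 144 h, and its second probe changed by -2.09.

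Genes of triglyceride and fatty acid synthesis changed in both directions. Agpat2, the acyltransferase that makes phosphatidic acid, was at 11.83, 11.73 and 11.53 in untreated cells and 10.96, 11.22 and 10.96 in DMSO cells at 192, 240 and 288 h, against 12.83 and 13.24 in untreated cells and 12.40 and 12.38 in DMSO cells at 96 and 144 h (-1.34 ± 0.11, adjusted p = 0.00014). DMSO cells were lower than untreated cells at each of the 5 times. Aqp7, the glycerol channel, was at 7.62, 8.39 and 9.14 in untreated cells and 8.08, 8.15 and 8.98 in DMSO cells at 192, 240 and 288 h, against 6.14 and 6.11 in untreated cells and 5.97 and 6.38 in DMSO cells at 96 and 144 h (2.24 ± 0.27, 0.00065). It was dim at 96 to 144 h and highest at 288 h in both arms; 1 of its 3 probes changed by 0.34. Of 15 genes of triglyceride and glycerol synthesis 3 rose and 5 fell, against 11.2% of all genes in each direction. Without 144 h 1 fell, below the share of all genes, and 3 without the untreated array at 144 h or as deposited. Fasn, fatty acid synthase, was at 13.03, 13.02 and 13.01 in untreated cells and 12.32, 13.12 and 13.02 in DMSO cells at 192, 240 and 288 h, against 13.77 and 14.22 in untreated cells and 13.70 and 14.48 in DMSO cells at 96 and 144 h (-1.12 ± 0.20, 0.0035). Elovl5, an elongase of polyunsaturated fatty acids (-1.22 ± 0.19, 0.0018), and Pcx, pyruvate carboxylase (-1.27 ± 0.20, 0.0019), fell too. Me1, malic enzyme, which supplies NADPH for synthesis, rose (0.77 ± 0.14, 0.0046), a call lost without 96 h (0.54, adjusted p = 0.053). Of 17 genes of fatty acid synthesis 4 rose and 4 fell, with a median of -0.04. Without 96 h 1 rose, and 2 without 240 h, 288 h or the untreated array at 144 h. These lower counts are near or below the share of all genes.

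**Figure D3:**
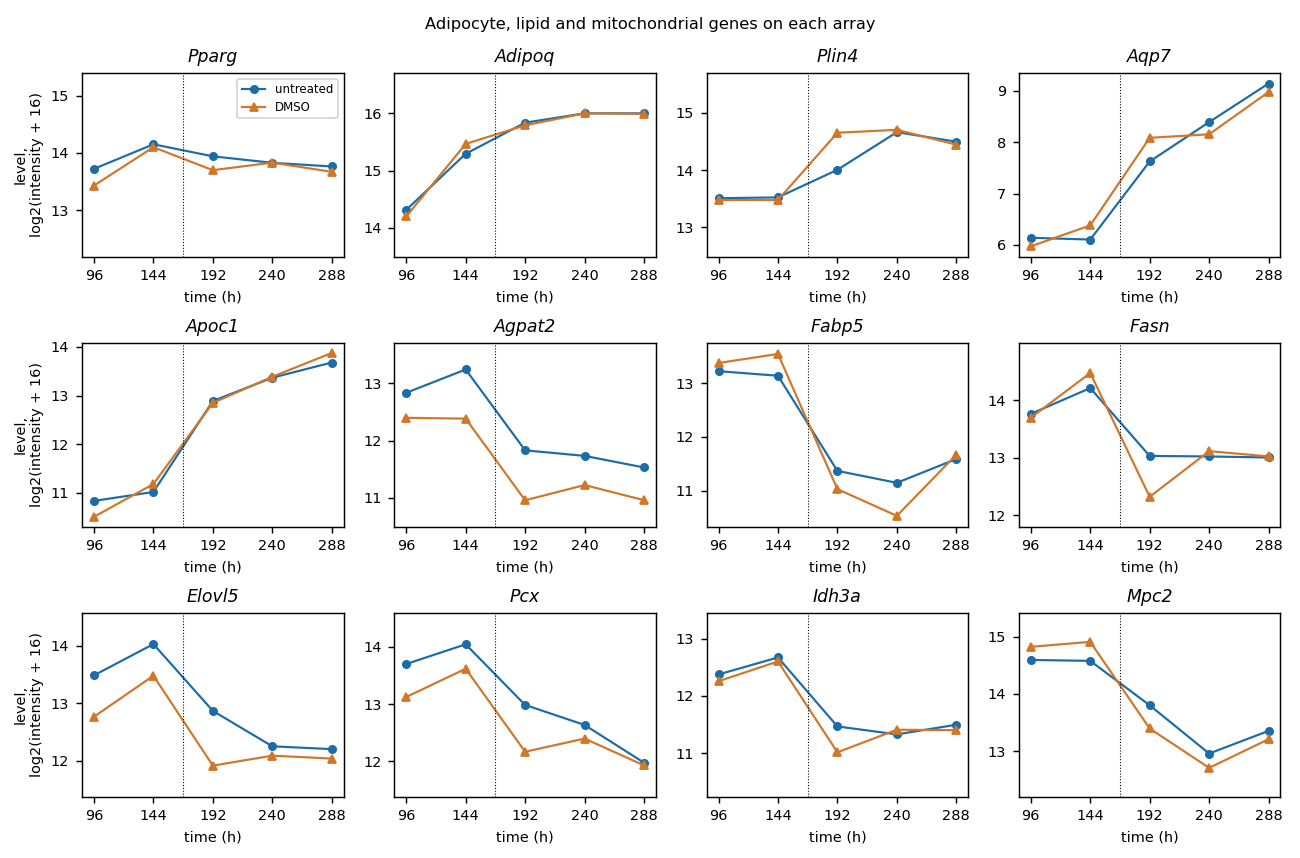
Level of 12 genes of the fat cell, lipid and mitochondrial lists on each array, as log2(intensity + 16) against time in hours, untreated cells as circles and DMSO cells as triangles, 1 array per point. The dotted line parts the windows, and each panel spans at least 3.2 log2 units. Pparg overlapped between the windows, Plin4, Aqp7 and Apoc1 were higher at all later times, and Agpat2, Fabp5, Fasn, Pcx, Idh3a and Mpc2 were lower at all later times.

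Most tested genes of cholesterol synthesis fell, and some genes of cholesterol efflux rose. The synthesis genes are targets of SREBP-2, which is active when sterols are low, and the efflux genes are targets of LXR, which is active when oxysterols are high. Of 25 listed genes of cholesterol synthesis and uptake 18 were measured and 17 passed the filter. Among these 1 rose and 12 fell, against 11.2% of all genes in each direction. Their median change was -0.65, with a range of -2.71 to 0.43. The windows did not overlap for 11 of the 12 that fell, against 899 of all 1396 genes called lower. Cyp51, lanosterol demethylase, was at 11.54, 10.11 and 9.77 in untreated cells and 10.36, 9.80 and 9.84 in DMSO cells at 192, 240 and 288 h, against 12.44 and 13.32 in untreated cells and 12.32 and 13.70 in DMSO cells at 96 and 144 h (-2.71 ± 0.38, adjusted p = 0.0012). Its second probe changed by -2.50, and the untreated array at 192 h was the highest of its window. Idi1, isopentenyl diphosphate isomerase, was at 9.47 to 10.21 (median 9.98) at 192 to 288 h, against 10.67, 10.74, 11.03 and 11.25 at 96 to 144 h (-0.99 ± 0.11, 0.00043). Mvd, mevalonate decarboxylase, changed by -0.89 ± 0.10, 0.00058 and Insig1, which retains SREBP in the endoplasmic reticulum, by -1.14 ± 0.17, 0.0018. The count of falls ran from 10 to 13 over single arrays left out, and was 7 without 144 h and 8 as deposited.

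The list mean was 9.76 to 10.02 at 192 to 288 h, against 10.36 to 10.61 at 96 to 144 h. The sterol response element was searched in the same promoter windows as TCACNCCAC on both strands: 0 of 14 list members with a window held these letters, against 1.44% of all genes in the promoter table. At so low a share 0 of 14 is likely for any list of this size, so the search does not set the list apart. Of 14 genes of cholesterol efflux and LXR targets 5 rose and 0 fell, against 11.2% of all genes in each direction, with a median of 0.32. Apoc1, apolipoprotein C1, was at 12.89, 13.37 and 13.68 in untreated cells and 12.85, 13.39 and 13.88 in DMSO cells at 192, 240 and 288 h, against 10.84 and 11.02 in untreated cells and 10.51 and 11.18 in DMSO cells at 96 and 144 h (2.46 ± 0.22, adjusted p = 0.00021). Pltp, phospholipid transfer protein, changed by 1.78 ± 0.27, 0.0016. Abcg1, a sterol exporter, changed by 1.29 ± 0.32, 0.016, which did not pass once 96, 240 or 288 h was left out (adjusted p = 0.12, 0.078 and 0.064) or the untreated array at 96 h (0.056), and it was 0.65 without 96 h. Its second probe changed by 0.50. Without 96, 240 or 288 h, or without the untreated array at 96 h, 3 efflux genes rose.

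Part of the mitochondrial genes fell. Of 27 genes of pyruvate use and the TCA cycle 0 rose and 7 fell, with a median of -0.26, and of 25 genes of the respiratory chain and ATP synthase 0 rose and 8 fell, with a median of -0.19, against 11.2% lower among all genes. Mpc2, a subunit of the mitochondrial pyruvate carrier, was at 13.80, 12.96 and 13.36 in untreated cells and 13.40, 12.71 and 13.21 in DMSO cells at 192, 240 and 288 h, against 14.59 and 14.58 in untreated cells and 14.82 and 14.91 in DMSO cells at 96 and 144 h (-1.49 ± 0.19, adjusted p = 0.00084). Idh3a, a subunit of isocitrate dehydrogenase, was at 11.02 to 11.50 (median 11.41) at 192 to 288 h, against 12.26, 12.38, 12.60 and 12.67 at 96 to 144 h (-1.12 ± 0.12, 0.00039), and Uqcrfs1, the Rieske protein of complex III, was at 9.30 to 9.56 (median 9.45) at 192 to 288 h, against 10.04, 10.21, 10.24 and 10.26 at 96 to 144 h (-0.74 ± 0.09, 0.0007). Crat, carnitine acetyltransferase, changed by -1.30 ± 0.24, 0.0047; it was -0.82 without 144 h. The TCA count was 4 without 96 h, and 3 with time as a random block, without 144, 240 or 288 h, or without any of the DMSO arrays at 288, 96 and 144 h or the untreated array at 96 h. The respiratory count was 2 without 96 h, 3 without 144, 240 or 288 h, and 5 with the block, as deposited, with no filter on low values or without any of 6 single arrays (all but the untreated and DMSO arrays at 192 h, the untreated array at 288 h and the DMSO array at 96 h). At these lower counts the shares are near or below the 11.2% of all genes, apart from 4 of 27 and 5 of 25. Of 19 genes of fatty acid oxidation 1 rose and 4 fell (1 without 144 h, 2 without 240 or 288 h), and of 23 of branched-chain amino acid breakdown 0 rose and 1, Acat1, fell (-0.82 ± 0.15, 0.0045).

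Among 15 thermogenic and brown adipocyte markers measured, 7 passed the filter. Of these 2 rose and 1 fell, against 11.2% of all genes in each direction. The median change was -0.37, and 3 of the 7 estimates were above 0. The rises were Cox8b (2.78 ± 0.26, 0.00026), at 7.67 to 8.78 at 192 to 288 h against 5.12 to 6.02 at 96 to 144 h, and Cox7a1 (1.31 ± 0.21, 0.0024), muscle and brown fat isoforms of cytochrome oxidase subunits. The fall was that of Ebf2 (-0.40 ± 0.10, 0.013), which did not pass as deposited or without 96, 144 or 288 h. Ucp1, the uncoupling protein of brown fat, was below the filter at 5.26 ± 0.12 (SD, n = 6) at 192 to 288 h and 5.07 ± 0.21 (SD, n = 4) at 96 to 144 h. Elovl3, also below it, was lower on all later arrays, at 5.42 ± 0.31 against 6.91 ± 0.90 in the same order. Ucp3, below it too, went the other way, at 5.86 ± 0.31 against 5.19 ± 0.31, with overlap.

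Glucocorticoid targets and clock genes fell in part. Of 15 genes of glucocorticoid activation and response 1 rose and 4 fell, with a median of -0.43, against 11.2% of all genes in each direction. Dusp1, a MAP kinase phosphatase, was at 9.79 to 11.89 (median 10.25) at 192 to 288 h, against 12.30, 12.53, 12.59 and 12.60 at 96 to 144 h (-2.07 ± 0.33, adjusted p = 0.0022). Fkbp5, a cochaperone of the glucocorticoid receptor, was at 15.02, 13.76 and 12.60 in untreated cells and 13.08, 13.69 and 12.53 in DMSO cells at 192, 240 and 288 h, against 15.17 and 15.51 in untreated cells and 15.12 and 15.69 in DMSO cells at 96 and 144 h (-1.92 ± 0.42, 0.0086); the untreated array at 192 h was the later array nearest to the earlier values, and the call was lost without 144 h (-1.69, adjusted p = 0.08). Without 144 h 2 fell and without the untreated 192 h array 7. Errfi1, an inhibitor of EGF receptor signalling, changed by -2.06 ± 0.40, 0.005, though its second probe changed by 0.04. Hsd11b1, which activates glucocorticoids, rose (1.04 ± 0.21, 0.0058), a call lost without 96 h (0.73, adjusted p = 0.074). Of 15 clock genes 0 rose and 4 fell, among them Hlf (-1.12 ± 0.12, 0.00042) and Nfil3 (-1.28 ± 0.18, 0.0011), transcription factors of the clock's output; over single arrays and times left out the count ran from 2, near the share of all genes, to 6. Rgs2, a regulator of G protein signalling that the list of lipolytic receptors holds, fell (-1.35 ± 0.23, 0.003).

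Stress and degradation genes rose in part. Of 20 NRF2 targets and antioxidant enzymes 9 rose and 1 fell, with a median of 0.52, against 11.2% of all genes in each direction. Gclm, the modifier subunit of glutamate-cysteine ligase, was at 11.78, 11.79 and 11.81 in untreated cells and 11.29, 11.82 and 11.91 in DMSO cells at 192, 240 and 288 h, against 10.29 and 10.71 in untreated cells and 10.36 and 10.69 in DMSO cells at 96 and 144 h (1.22 ± 0.14, adjusted p = 0.00057). Gstm1 (1.38 ± 0.13, 0.00027) and Mgst1 (0.71 ± 0.10, 0.0011), glutathione transferases, and Gsr, glutathione reductase (0.70 ± 0.09, 0.00081), rose too; the other probe of Gstm1 changed by 0.25. Of 22 lysosome and autophagy genes 10 rose and 1 fell, with a median of 0.21; 6 rose without 240 h. Ctsk, cathepsin K, changed by 1.62 ± 0.23, 0.0012, Gpnmb, a glycoprotein of lysosomal stress, by 1.38 ± 0.14, 0.00037, Gla, alpha-galactosidase A, by 0.91 ± 0.13, 0.0016 and Sqstm1, the autophagy receptor p62, by 0.80 ± 0.13, 0.0022. The other 2 probes of Gpnmb changed by 0.14 and 0.21.

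Of 20 genes of ER stress and the amino acid response 5 rose and 0 fell, against 11.2% of all genes in each direction. Without 96 h 2 rose, near the share of all genes. Chac1, which degrades glutathione, was at 12.80 to 13.68 (median 13.09) at 192 to 288 h, against 10.81, 11.08, 12.26 and 12.31 at 96 to 144 h (1.5 ± 0.31, adjusted p = 0.0072) and was 0.83 without 96 h. Herpud1, a component of ER-associated degradation, changed by 0.83 ± 0.16, 0.0055 and was 0.51 without 96 h. Of 11 heat shock genes 3 rose and 1 fell, led by Cryab, the small heat shock protein alpha B-crystallin (1.85 ± 0.14, 0.00014), at 12.59 to 13.19 at 192 to 288 h against 10.82 to 11.30 at 96 to 144 h. Proteasome subunits had 0 rises and 1 fall of 19, and ribosome biogenesis 0 rises and 2 falls of 17, with a median of -0.18. The shares of these 2 lists were near or below that of all genes.

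The counts of the remaining lists stand against 11.2% of all genes in each direction. Of 16 genes of insulin signalling and glucose uptake 5 rose and 3 fell; 0 rose without 240 h, 2 with time as a random block, and 2 or 3 without any 1 of 8 single arrays. Of 20 genes of glycolysis and hypoxia 3 rose and 1 fell; 1 rose without 96 h, 288 h or either DMSO array of 96 to 144 h. Of 23 Wnt genes 1 rose and 1 fell. The rise was that of Sfrp2, a Wnt antagonist (1.33 ± 0.36, 0.024), which did not pass with time as a random block (0.066) or in 8 other settings, among them leaving out 96, 144, 240 or 288 h (0.056 to 0.17). The fall was that of Wnt4 (-1.64 ± 0.16, adjusted p = 0.00027), at 7.21 to 7.80 (median 7.59) at 192 to 288 h, against 8.82, 8.96, 9.44 and 9.50 at 96 to 144 h. Of 19 TGF-beta, activin and BMP genes 5 rose and 0 fell; the count was 0 without 288 h, 1 with time as a random block or without 96, 144 or 240 h, and 1 to 4 over single arrays left out. Of 12 genes of the insulin-like growth factor system 2 rose and 1 fell, the fall being Igfbp5, a binding protein (-1.12 ± 0.18, 0.0026). Of 17 carboxylesterases and detoxifying enzymes 3 rose, among them Ephx1, microsomal epoxide hydrolase (0.69 ± 0.11, 0.002), and 1 fell, Akr1b8 (-0.59 ± 0.10, 0.0027). Of 18 preadipocyte and anti-adipogenic genes 4 rose and 2 fell, with a median of -0.07. Foxc2, a forkhead factor, fell (-0.79 ± 0.11, 0.00097) and Pdgfrb, a receptor of progenitors and pericytes, rose (1.45 ± 0.27, 0.0047), a call lost without 144 h (1.08, adjusted p = 0.06); 0 of the 18 rose without 144 h, 2 without 240 h or with time as a random block, and 1 without the untreated array at 144 h. Of 12 fibroblast and preadipocyte markers 4 rose and 0 fell, and their summed intensity ran from 332900 to 428500 at 192 to 288 h and from 269000 to 367700 at 96 to 144 h; 0 rose without 144 h. Of 10 adipocyte markers 3 rose and 0 fell, with a summed intensity of 235200 to 301300 at 192 to 288 h and 173200 to 276000 at 96 to 144 h, both with saturated members; 0 rose without 240 h.

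**Figure D4:**
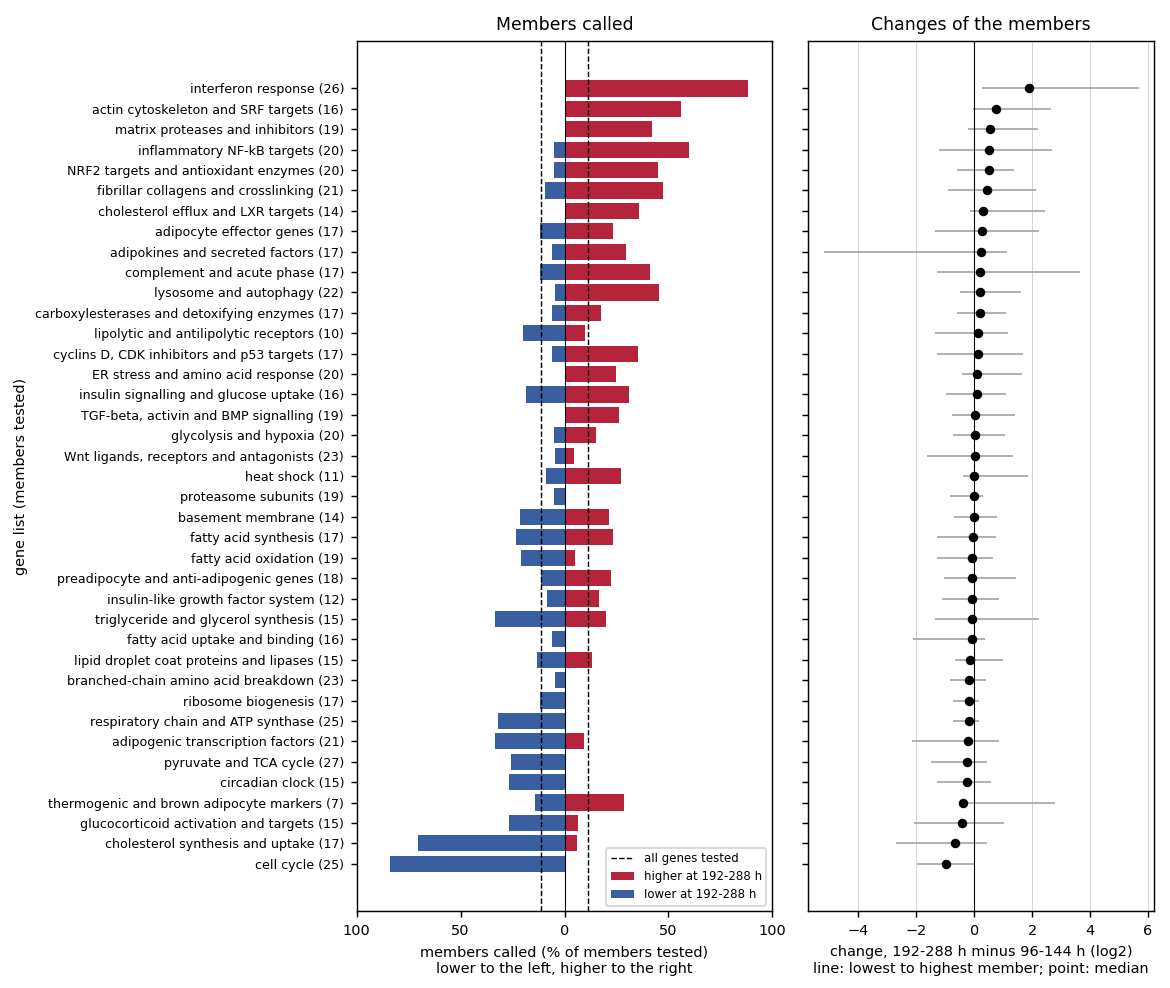
Left, share of each list's tested members called lower (to the left) or higher (to the right) at 192 to 288 h, with dashed lines at the share of all genes tested, 11.2% in each direction. Right, the change of the members in log2 units, with the median as a point and the lowest and highest member as the ends of the line. The interferon list (23 of 26 higher) and the cell cycle list (21 of 25 lower) stand at the ends.

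Set against the first 48 h, most of the later levels were not outside the range the controls had already covered. Of the 1392 genes that rose, 1002 (72%) had a later median within the range of the 26 control arrays of 0 to 48 h, 352 (25.3%) above it and 38 (2.73%) below it. Of the same genes, 423 (30.4%) had a 96 to 144 h median below that range. Of the 1396 that fell, 979 (70.1%) had a later median within the range, 336 (24.1%) below it and 81 (5.8%) above it, and 403 (28.9%) had a 96 to 144 h median above it. The share of later medians outside the range, in the direction of the change, was 20 of 21 among the cell cycle genes that fell, 4 of 5 among the efflux genes that rose, 3 of 23 among the interferon genes, 1 of 12 among the NF-kB targets and 0 of 9 among the actin genes. The 96 to 144 h medians already lay outside on the same side for 13 of these 21 cell cycle genes and 3 of these 5 efflux genes. For the interferon, NF-kB and actin genes that number was 0.

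Whether the change over long culture differed between vehicle and no vehicle was tested as the DMSO change minus the untreated change. No gene passed (0 of 12477, 0%, by limma), and 194 (1.55%) had an unadjusted p below 0.05. This fit did not pair the arms by time, and with time as a random block 0 genes passed as well. Within the arms, 467 genes rose (3.74%) and 394 fell (3.16%) in DMSO cells, and 220 (1.76%) and 174 (1.39%) in untreated cells. A difference between these counts is no test of a difference between the arms. Without the DMSO array at 96 h 11 genes passed the test of the difference, without that at 144 h 2, and without the untreated array at 96 h 1. Without 96 h in both arms 3 passed and without 144 h 2. The 5 genes with the smallest p had changes of opposite sign in the arms. The smallest was that of 1700028J19Rik, a RIKEN transcript, at 6.53, 6.46 and 6.5 in DMSO cells and 6.34, 6.30 and 6.35 in untreated cells at 192, 240 and 288 h, against 6.01 and 5.79 in DMSO cells and 6.61 and 6.73 in untreated cells at 96 and 144 h. Its difference was 0.94 ± 0.18 with an adjusted p of 1.

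For the interferon list the median change was 2.20 in DMSO cells and 1.64 in untreated cells. Ifit3 changed by 6.31 in DMSO cells and 5.04 in untreated cells, a difference of 1.27 ± 1.18. Pip changed by -5.44 in DMSO cells and -5.26 in untreated cells, and Itih4 by 4.22 and 4.19 in the same order. Median changes of the cell cycle list were -1.05 in DMSO cells and -1.03 in untreated cells, and those of the cholesterol synthesis list -0.60 and -0.62. Without the untreated array at 192 h the change of Ifit3 over both arms was 6.23 instead of 5.67.

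**Figure D5:**
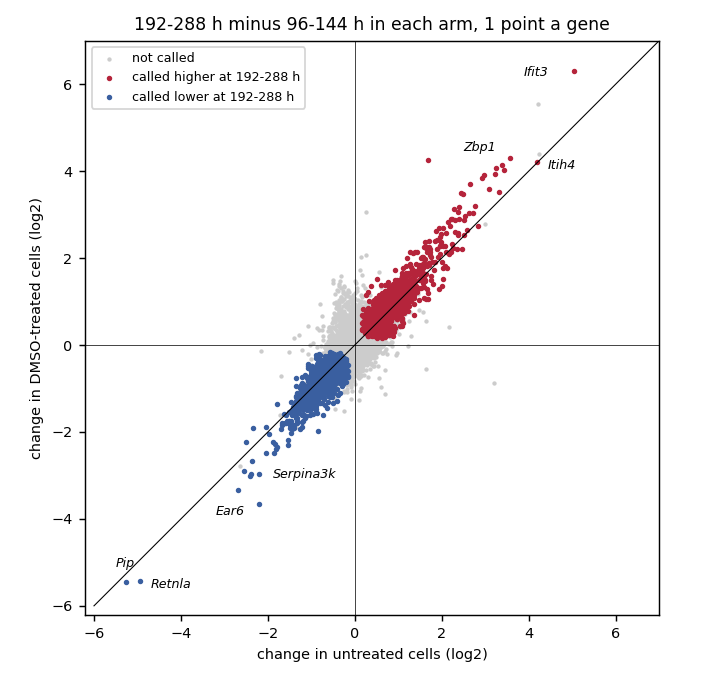
Change between the windows in DMSO cells (vertical axis) against that in untreated cells (horizontal axis), in log2 units, 1 point per gene tested, with genes called over both arms in red (higher) and blue (lower) and the others in grey. The line marks equal changes. All 2788 called genes lie in the 2 quadrants of equal sign, which the call over both arms favours.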

How the data were processed

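RNA of 3T3-L1 cells was amplified, labelled with Cy5 and hybridised to single-colour mouse arrays, per the labels' protocols. The authors deposited 1 table of linear intensity values per probe for 54 arrays; per the values, it runs from -12 to 65494 over the 10 arrays used. Scanner, background correction and scaling are not given in the sources used here. Intensities were quantile-scaled over the 54 arrays, floored at 0 and turned into log2(intensity + 16), which understates changes of dim genes; the deposited values themselves are not on a log2 scale. Of 29922 probes 21020 had 1 gene symbol, 0 several and 8902 none, and 3410 symbols were updated to current ones. The brightest probe stood for each of 16637 genes, and 12477 with a mean above the lower quartile (6.17) were tested. A probe within 50 units of its array's highest value was taken as saturated.

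limma 3.58.1 in R 4.3.3 fitted window and arm over the 10 arrays (7 residual degrees of freedom), and a mean for each arm and window for the difference between arms (6 residual degrees of freedom), with Benjamini-Hochberg adjustment and a threshold of 0.05. The procedure was tested on simulated data with independent noise on each array. Arrays of the same time had a correlation of 0.289 in the data, which the simulation does not cover. Other scalings, pseudocounts, filters, probe choices and variance models, time as a random block, a slope on time, and leaving out each array or time were tried. Named genes were the 12 largest rises and 12 largest falls among called genes whose windows did not overlap, up to 4 called members of each of 46 lists by smallest p, up to 2 of lists with none, the 5 smallest p of the arm difference, and genes followed whatever their values. The members and lists were chosen with earlier results of these data known. Promoters came from the RefSeq table of GRCm38.p6, without those of mouse chromosome 18. Retn was not analysed here. Figures were drawn with matplotlib 3.10.9.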

Additional observations from a re-analysis of the deposited data

Results flagged for a closer look

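In each window, the highest and the lowest array of every named gene and list mean was set against its neighbour by Dixon's test, and 37 of 456 groups of values (8.11%) held an array far from the others, where chance flags about 1 in 20. Of these, 22 were the untreated array at 192 h and 10 the DMSO array at 192 h. Levels are log2(intensity + 16).

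The untreated array at 192 h lay far below the other 5 later arrays for the interferon-stimulated genes Ifit3 (10.2), Isg15 (11.2), Ifit2 (9.58), Gbp3 (9.58), Mx2 (8.57), Ifi47 (10.3), Stat2 (10.6), Zbp1 (6.37) and Phf11d (9.08). It was also lowest for Acta2 (13.4), Cp (13.1), Igfbp3, an insulin-like growth factor binding protein (9.67), Mmp11 (11.8), Mpeg1 (7.76), Pdgfrb (11.3), Plin4 (14.0) and Sfrp2, a Wnt antagonist (7.27). It was highest for Cyp51 (11.5), Ear6 (7.25) and Elovl5 (12.9). The means of the interferon list (10.5) and of the actin list (10.8) were lowest there as well.

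The DMSO array at 192 h was lowest of its window for Cebpa (9.22), Fasn (12.3), Gclm (11.3), Idh3a (11.02), Cfd (15.7), Scd1 (14.5) and the mean of the fatty acid synthesis list (11.5). It was highest for Flt1, a VEGF receptor (8.64), Ndrg1, a hypoxia-induced gene (9.17), and the mean of the glycolysis and hypoxia list (12.7).

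Single arrays stood apart elsewhere for Hp (15.8, lowest at DMSO 240 h), Lpl (15.97, lowest at untreated 240 h), Gsr (11.8, highest at DMSO 96 h), Thbs1 (5.82, lowest at untreated 96 h) and the mean of the TGF-beta list (9.66, lowest at untreated 144 h). Lpl, Cfd, Scd1 and Hp were saturated on most later arrays, where the spread is compressed.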

How the results depend on the processing

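The count of 2788 called genes ran from 2061 to 2973 over single arrays left out and from 1563 to 3051 over single times left out, with 1676, 1583, 1563 and 1741 without 96, 144, 240 and 288 h; fewer samples enter these fits. It was 394 in the untreated arm alone and 861 in the DMSO arm alone, 1971 as deposited, 2251 with median centring, 1894 with time as a random block (correlation 0.289) and 2392 for a slope on time. The arm difference called 0 genes, 1 with the mean of all probes, 0 to 11 over single arrays left out and 0 to 3 over single times. Of the 166 called genes that the naming rule picked, 98 kept their call in every setting in which they were tested (at most 28) and 153 with time as a random block. A pseudocount of 64 lowered the changes of the dim genes Ccn2 (1.23), Ankrd1 (1.64), Csf1r (1.22) and Zbp1 (2.56). The sign was followed over the settings for the named genes only, and it turned for 0 of these 166 called genes. Lpl (-0.11 with median centring, -0.015 as deposited, -0.0045 without 96 h) and Scd1 (0.17 without DMSO 192 h or 192 h, 0.067 without DMSO 144 h, 0.11 without 144 h) lie at the scanner's ceiling, so these differences show neither size nor direction. Among genes not called it turned for Pparg (0.027 without untreated 144 h, 0.059 without DMSO 144 h, 0.21 without 144 h), Tesc (-0.0056 without DMSO 96 h), 1700028J19Rik (-0.021), B3gnt8 (-0.0098) and Map3k2 (0.020) without DMSO 144 h, Map3k2 (0.019), Cebpa (0.0070) and Dlk1 (-0.033) without 144 h, and Cd36 (-0.014) and Slc2a4 (-0.058) without 96 h. Over all single arrays and times left out, the changes of these genes ran as follows: Lpl from -0.0045 to 0.02, Scd1 from -0.24 to 0.17, Pparg from -0.34 to 0.21, Tesc from -0.0056 to 0.31, 1700028J19Rik from -0.021 to 0.26, B3gnt8 from -0.0098 to 0.58, Map3k2 from -0.28 to 0.02, Cd36 from -0.014 to 0.71, Slc2a4 from -0.058 to 1.07, Cebpa from -0.80 to 0.007 and Dlk1 from -0.033 to 0.48. The cause was not tested. No paired analysis was possible because the numbers of the arrays follow their times, so equal numbers in the windows mark no shared sample. Saturation limits the brightest genes, and probes near an intensity of 0 limit the dimmest.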

Other observations

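The prieurianin arm entered no comparison above. Its mean level of the interferon list, as log2(intensity + 16), was 10.05, 9.71, 9.09, 11.48 and 11.09 at 96, 144, 192, 240 and 288 h. Its mean of the cell cycle list was 10.49, 10.28, 10.20, 10.64 and 11.13 at these times. Its mean of the cholesterol synthesis list was 10.35, 10.32, 11.48, 9.98 and 10.16. Each value is 1 array, and no test was run on them.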
